A study of Homo sapiens with 6 samples.

Results

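The ATP-binding cassette (ABC) transporters were taken as every gene whose symbol begins with ABCA to ABCG and continues with a number, measured with each probe set that the array's annotation assigns to 1 gene. This gave 45 genes of 19775 named on the array, of which 41 are protein coding and 4 are pseudogenes (ABCA11P, ABCA17P, ABCC6P1 and ABCC13), with 99 probe sets in all and 1 to 5 per gene. Another 2 probe sets, each annotated to 2 genes, were left out. Of the 45 genes, 22 were bright enough to enter the tests, beside 12078 genes of the whole array.

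The study sorted CD24+ and CD24- cells from 3 established human myeloma cell lines, OPM2, OCI-MY5 and ARP1, all grown as untreated cultures in RPMI-1640 with serum. Each line gave 1 Affymetrix U133 Plus 2.0 array per fraction, so there were 3 CD24+ and 3 CD24- arrays. The series sets CD24+ against CD24- cells; the lines are compared here by treating a line's CD24+ and CD24- arrays as its 2 replicates. No label says that arrays came from separate cultures, so p-values measure the spread between these arrays and not between cultures. In the line tests it is the spread between a line's CD24+ and CD24- arrays, with fraction and technical differences together. In the fraction test without a block it is the spread within a fraction, which holds the differences between the 3 lines. Bulk RNA cannot tell fewer cells of a kind from less RNA per cell.

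ABC transporters bind and hydrolyse ATP through paired nucleotide-binding domains, and most use it to move a substrate across a membrane. Subfamily A moves mainly lipids. Subfamily B includes the drug pump ABCB1 and transporters of mitochondria and lysosomes, and subfamily C holds the multidrug resistance proteins, which export drugs, organic anions and glutathione conjugates, together with channel regulators. Subfamily D works in peroxisomes and lysosomes, and subfamily G includes sterol exporters and the drug pump ABCG2. Subfamilies E and F lack membrane-spanning domains and act in translation. In myeloma, ABCB1 and ABCG2 are studied because they can lower the amount of drug held by a cell.

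The lines differed in these genes and the fractions did not pass the test. Drug pumps ABCC10 and ABCC4 were lower in OPM2 than in both other lines, ABCG2 and the porphyrin-linked transporter ABCB6 were higher in OPM2 than in both, calls that median centring ended, and the cholesterol exporter ABCA1 was lower in OPM2 than in ARP1. No transporter differed between CD24+ and CD24- cells at an adjusted p below 0.05.

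Promoter sequences are shown for ABCC10, ABCC4 and ABCA1, the members that fell furthest in OPM2 among those tested. Each runs 5′ to 3′ on the gene's own strand, 250 bases before to 50 bases after the start of the gene's reference transcript, from RefSeq (GRCh38.p14). ABCC10 is at chr6:43427613-43427912 on the plus strand, ABCC4 at chr13:95301402-95301701 and ABCA1 at chr9:104928106-104928405, both on the minus strand. Capitals mark matches on either strand to any of 5 motifs. The GC box was searched as GGGCGG and the E box as CACGTG. The core of the antioxidant response element was searched as TGACNNNGC. The TATA box was searched as TATAAA, and the box named after its letters as CCAAT.
ABCC10: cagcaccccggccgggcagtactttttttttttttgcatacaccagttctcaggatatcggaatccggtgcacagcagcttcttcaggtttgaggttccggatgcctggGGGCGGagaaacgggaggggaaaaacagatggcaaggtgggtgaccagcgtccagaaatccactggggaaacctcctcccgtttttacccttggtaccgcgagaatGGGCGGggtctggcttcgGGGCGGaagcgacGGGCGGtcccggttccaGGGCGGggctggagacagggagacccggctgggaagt
ABCC4: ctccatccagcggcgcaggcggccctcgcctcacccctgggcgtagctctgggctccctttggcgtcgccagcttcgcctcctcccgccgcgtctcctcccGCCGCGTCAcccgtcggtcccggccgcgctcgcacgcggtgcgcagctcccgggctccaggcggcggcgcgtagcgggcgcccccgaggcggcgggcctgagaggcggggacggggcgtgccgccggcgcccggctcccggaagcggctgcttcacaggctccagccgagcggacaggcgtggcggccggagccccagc
ABCA1: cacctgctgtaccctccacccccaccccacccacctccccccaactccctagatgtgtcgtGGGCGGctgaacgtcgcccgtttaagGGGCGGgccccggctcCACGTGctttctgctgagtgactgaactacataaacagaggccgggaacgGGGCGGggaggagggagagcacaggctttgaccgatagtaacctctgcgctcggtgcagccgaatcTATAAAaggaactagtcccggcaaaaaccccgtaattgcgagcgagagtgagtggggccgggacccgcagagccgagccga

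The 3 windows differ in these letters. ABCC10 holds 5 GC boxes, at -141, -35, -17, -4 and 14 counted from the first base of the transcript as 1, with -1 before it, and no match to the other motifs. ABCC4 holds 1 antioxidant core, on the opposite strand, at -149, and none of the other 4 motifs. ABCA1 holds 3 GC boxes, at -189, -163 and -97, an E box at -147 and a TATA box at -31. Marked motifs do not overlap in these windows. RefSeq gave such a window for 33 of the 45 members, 19 of them tested. A GC box was in 15 of the 19 tested members and in 44.6% of 27305 windows of all genes, and the antioxidant core was in 7 of the 19 and in 13.6%. The CCAAT motif was in 4 of the 19 (35.7% of all windows), the TATA box in 2 (12%) and the E box in 3 (7.43%). Over all 33 members with a window, bright or dim, a GC box was in 18 and the antioxidant core in 7. The CCAAT motif was in 6 of the 33, the TATA box in 4 and the E box in 4. Windows of all genes include genes too dim to test, and shares for tested genes alone are not given. The counts of tested members are therefore not a like comparison with them. Median GC content was 65.7% in tested members with a window, 48.5% in members too dim to test and 58.3% in all genes. These matches are letters in a window and were not measured as bound sites.

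The arrays are not of equal quality. The OPM2 CD24+ array had a hybridisation spike-in geometric mean of 37360 and a median intensity of 135, against 6175 to 7399 and 69.0 to 84.2 on the other arrays. The ratio of 3′ to 5′ ACTB probe sets, a measure of RNA and cDNA integrity that is low in intact samples, was 27.1 and 7.54 in OPM2 CD24+ and CD24- cells, 9.36 and 23.2 in the OCI-MY5 pair and 2.63 and 2.47 in the ARP1 pair. It was lowest in ARP1 on both arrays, and its part in the results below was not tested. All 10 plasma cell markers were above background on every array, with summed intensities of 290900 and 214400 in OPM2, 115200 and 111500 in OCI-MY5 and 152700 and 155800 in ARP1. Of the T cell and myeloid markers, 0 of 6 and 0 of 5 were above 96.4, the background limit explained below, on all arrays, with sums of 185 to 477 and 162 to 865. On at least 1 array, 4 of 6 and 4 of 5 were above it. Of 5 stromal markers 1 was above it on all arrays and 5 on at least 1, with sums of 337 to 603. Of 4 erythroid markers, 2 had a probe set of their own. HBB reached 2298 and the other was at background on all arrays. Their sum was 2385 and 1796 in OPM2 CD24+ and CD24- cells, 168 and 196 in the OCI-MY5 pair and 85.0 and 282 in the ARP1 pair. The part of these genes in the line results was not tested.

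Of the 45 members, 23 were too dim to test. A probe set was taken as at background on an array when it did not exceed the brightest probe set of TrpnX, a bacterial control sequence on the array. With each array's own limit, 2 members were at background on all arrays: ABCA4, a retinal lipid transporter, and ABCC2, an exporter of conjugates in liver. That limit is only 10.3 on the ARP1 CD24+ array and 39.3 to 96.4 on the others. With the highest of them, 96.4, used on every array, 13 members were at background: ABCA4, ABCA6, ABCA8, ABCA12, ABCA13, ABCB4, ABCB11, ABCC2, ABCC6P1, ABCC11, ABCC13, ABCG5 and ABCG8. Among them are transporters known from liver and gut, such as ABCB11, a bile salt exporter, and ABCG5 with ABCG8, which form a sterol exporter. The array median and an intensity of 100 also gave 13 each.

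The other 10 dim members passed 96.4 on 1 array or 2. They were ABCA9, ABCA17P, ABCB1, ABCB5, ABCC3, ABCC8, ABCC9, ABCC12, ABCD2 and ABCG4. On the OPM2 CD24+ array 7 of them passed, against 0 on the OPM2 CD24- array, 2 on each OCI-MY5 array, 1 on the ARP1 CD24+ array and 0 on the ARP1 CD24- array. The excess sits on the array with the highest median. ABCD2, a peroxisomal fatty acid transporter, had the highest value of these members at 260 on that array, against 73.8 in OPM2 CD24- cells and 2.32 to 80.8 in the other lines.

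**Figure D1:**
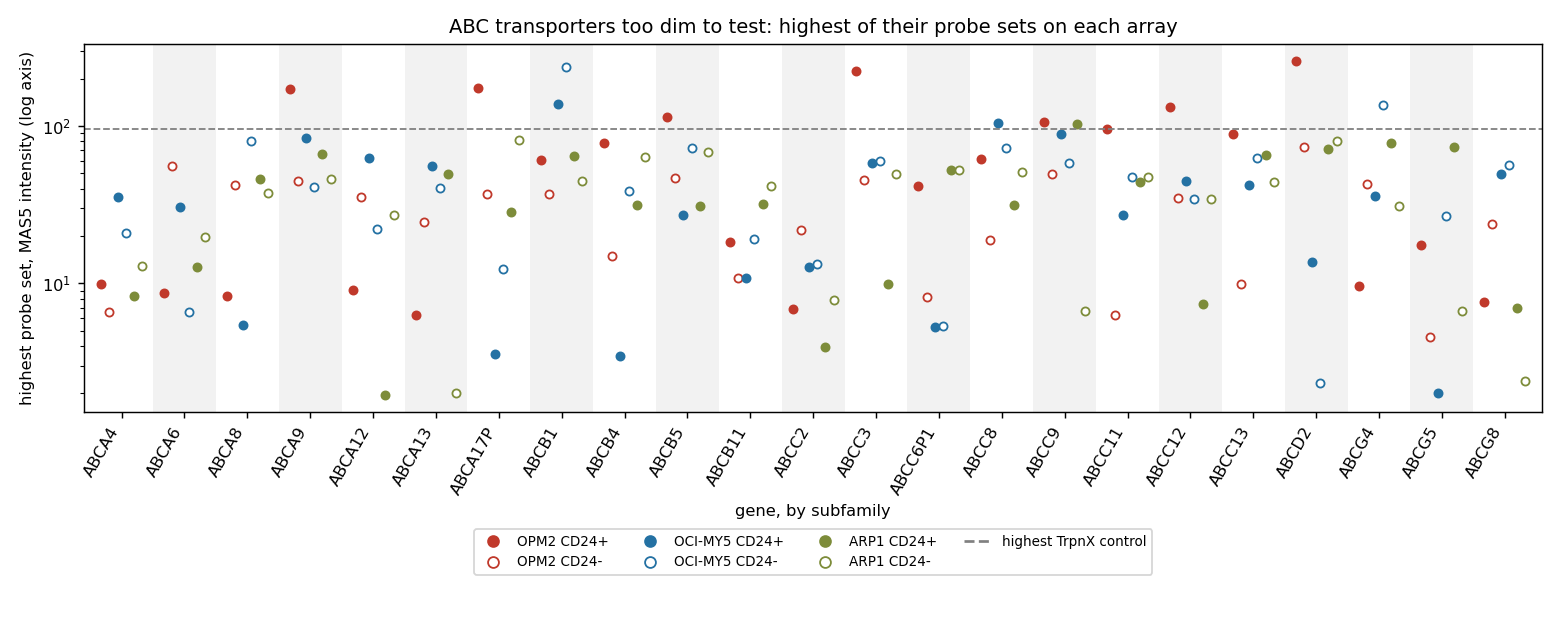
Members too dim to test, with the highest of each gene's probe sets on each array (MAS5 intensity, log axis). Filled points are CD24+ and open points CD24-, coloured by line, and the dashed line is the highest TrpnX value, 96.4. The OPM2 CD24+ array supplies 7 of the points above the line.

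Across the 22 tested members, the line accounted for a median of 88.2% of a gene's sum of squares (39.4 to 99.5%), and the fraction for 5.51%. Over all 12078 tested genes the medians were 77.5% and 4.76%. ABCC4 and ABCG2 had the highest shares for the line, 99.5% and 98.5%. ABCB8, a mitochondrial transporter, was the only tested member with a larger share for the fraction, 51.2%, than for the line, 39.4%.

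**Figure D2:**
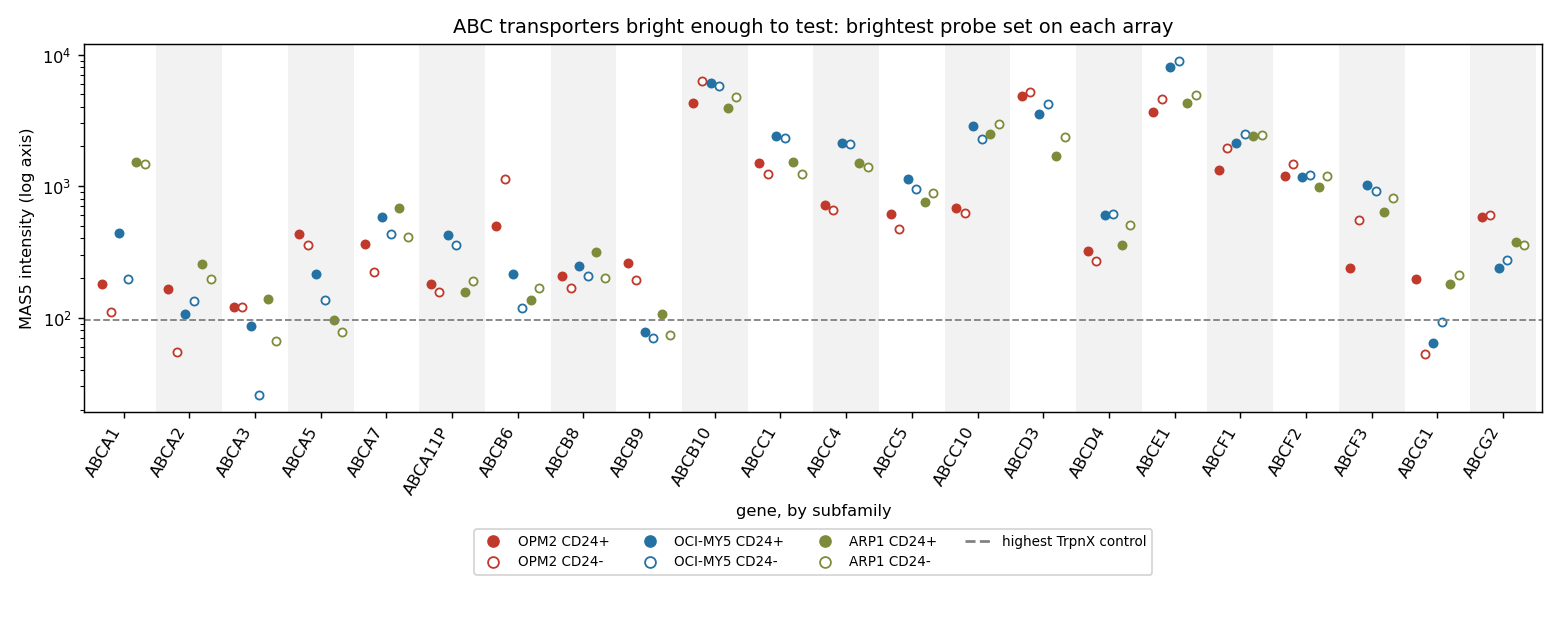
The 22 tested members by subfamily, as MAS5 intensity of the brightest probe set on each array (log axis). Filled points are CD24+ and open points CD24-, coloured by line, and the dashed line is the highest TrpnX value, 96.4. In most genes the points of a line lie together, as in ABCC4 and ABCG2.

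Lines were compared with limma on log2(intensity + 16), adjusted by Benjamini-Hochberg over all 12078 genes, and every fold change below is on that scale. Against ARP1, 8 of 22 members passed in OPM2 (36.4%), 5 higher and 3 lower, where 25% of all genes passed, 10.1% higher and 14.8% lower. Against OCI-MY5, 11 of 22 passed in OPM2 (50%), 4 higher and 7 lower, where 26.1% of all genes passed, 11.4% higher and 14.7% lower. Both comparisons use the same OPM2 arrays, so they are not independent. In all, 13 members passed in at least 1 comparison and 6 in both with OPM2: ABCA5, ABCB6, ABCB9, ABCC4, ABCC10 and ABCG2. The median difference of the tested members was -0.28 against ARP1 and -0.40 against OCI-MY5, beside -0.04 and -0.00 for all genes.

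These counts depend on single arrays and on scaling. The calls over all genes moved under the same changes, as given below and in the last section. A shift here is therefore not read as particular to the transporters. Leaving out the ARP1 CD24+ or the ARP1 CD24- array left 1 call in OPM2 against ARP1, and leaving out either OCI-MY5 array left 5. In OPM2 against OCI-MY5, 2 calls were left without either OCI-MY5 array and 5 without either ARP1 array. Without the OPM2 CD24+ array, which stands apart, there were 8 calls against ARP1, 6 of them shared with the full data, and 10 against OCI-MY5, all 10 shared. The calls lost without it were ABCA5 against OCI-MY5 (0.98, limma adjusted p = 0.0883) and, against ARP1, ABCB9 (1.004, adjusted p = 0.0509) and ABCG2 (0.70, adjusted p = 0.0564). Centring each array on its median moved the median of all genes to -0.30 against ARP1 and -0.40 against OCI-MY5 and made the split 1 higher and 4 lower against ARP1, and 0 higher and 5 lower against OCI-MY5. Among all genes it left 1864 calls against ARP1 and 2166 against OCI-MY5, from 3018 and 3150. It took the share of these calls that were higher to 22.2% and 22.5%, from 40.6% and 43.5%.

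**Figure D3:**
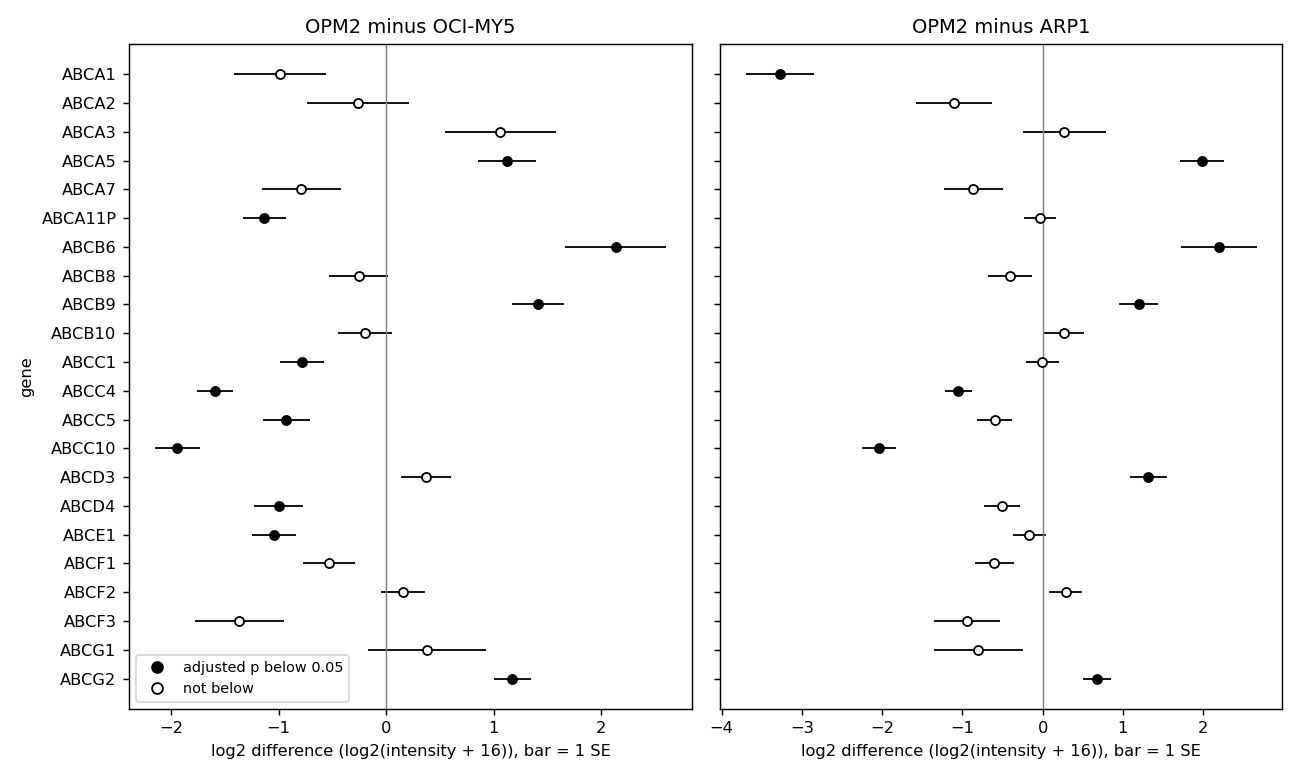
Difference in log2(intensity + 16) of each tested member, OPM2 minus OCI-MY5 at left and OPM2 minus ARP1 at right, with bars of 1 SE from limma (2 arrays per line, spread shared by the 3 lines). Filled points have an adjusted p below 0.05, 11 at left and 8 at right.

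In subfamily C, which holds most of the drug efflux pumps, 4 of 12 genes were tested, and 2 were lower in OPM2 than in ARP1 and all 4 lower than in OCI-MY5. ABCC10, which exports taxanes and other bulky drugs, read 682 and 620.5 in OPM2 CD24+ and CD24- cells, 2862 and 2270 in the OCI-MY5 pair and 2504 and 2973 in the ARP1 pair. Both OPM2 values lie below all 4 others, with no overlap. ABCC10 was 4.12-fold lower in OPM2 than in ARP1 (log2 difference -2.04, SE 0.21, limma adjusted p = 0.00401) and 3.85-fold lower than in OCI-MY5 (-1.94, SE 0.21, adjusted p = 0.00434). It passed under all 16 alternatives tried in each comparison. Its other probe set, 215873_x_at, of a kind that can bind related transcripts, read 345 and 408 in OPM2 against 741 to 1143 in the other lines and also passed (-1.42 and -1.26, adjusted p = 0.0269 and 0.0362 with every probe set tested on its own).

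ABCC4, which exports cyclic nucleotides, prostaglandins and nucleoside drugs, read 720.5 and 660 in OPM2 CD24+ and CD24- cells, 2126 and 2084 in the OCI-MY5 pair and 1497 and 1396 in the ARP1 pair. The 3 lines did not overlap, with OCI-MY5 highest and OPM2 lowest. ABCC4 was 3.01-fold lower in OPM2 than in OCI-MY5 (-1.59, SE 0.17, limma adjusted p = 0.00412) and 2.07-fold lower than in ARP1 (-1.05, SE 0.17, adjusted p = 0.0132). The second call was lost without either ARP1 array. ABCC4's 3 other probe sets were dimmer, the 2 bright enough to test on their own did not pass, and averaging all its probe sets ended both calls (adjusted p = 0.0582 and 0.0765).

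ABCC1 and ABCC5 differed less. ABCC1, which exports glutathione conjugates and anthracyclines, read 1502 and 1234 in OPM2 CD24+ and CD24- cells, 2414 and 2302 in the OCI-MY5 pair and 1517 and 1231 in the ARP1 pair. OPM2 and ARP1 overlapped and OCI-MY5 stood above both. ABCC1 was 1.72-fold lower in OPM2 than in OCI-MY5 (-0.78, SE 0.21, limma adjusted p = 0.0461), a call kept under 4 of 16 alternatives and, among single arrays left out, only without the OPM2 CD24+ array. Its other probe set showed no such difference (-0.13, adjusted p = 0.767).

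ABCC5, which exports cyclic nucleotides and nucleotide analogues, read 610 and 472 in OPM2 CD24+ and CD24- cells, 1123 and 957 in the OCI-MY5 pair and 757 and 887 in the ARP1 pair. In this brightest probe set the OPM2 values were the lowest and did not overlap the others. It was 1.90-fold lower in OPM2 than in OCI-MY5 (-0.93, SE 0.22, limma adjusted p = 0.0351), a call that was kept without the OPM2 CD24+ array and lost without any 1 of the other 5 arrays. Against ARP1 the difference of -0.60 did not pass (adjusted p = 0.106). OPM2 and ARP1 overlapped in its probe sets 226363_at (444 and 142 against 469 and 380) and 1558460_at (92.0 and 104 against 93.6 and 107). With every probe set tested on its own against OCI-MY5, 1558460_at passed (-1.18, limma adjusted p = 0.0258). There 226363_at did not pass (-1.36, adjusted p = 0.129).

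ABCG2, which exports a wide range of drugs and marks side population cells in many tissues, ran the other way. It read 585 and 605 in OPM2 CD24+ and CD24- cells, 237 and 273 in the OCI-MY5 pair and 373 and 357 in the ARP1 pair, from its only probe set. The lines did not overlap. ABCG2 was 2.26-fold higher in OPM2 than in OCI-MY5 (1.18, SE 0.17, limma adjusted p = 0.00989), a call lost without either OCI-MY5 array, and 1.60-fold higher than in ARP1 (0.68, SE 0.17, adjusted p = 0.0434), a call lost without any 1 of the 6 arrays. Median centring ended both calls (adjusted p = 0.228 and 0.558).

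ABCB1, the best known drug pump of myeloma, was too dim to test. Its brighter probe set, 209993_at, read 60.4 and 23.8 in OPM2 CD24+ and CD24- cells, 139 and 236 in the OCI-MY5 pair and 64.9 and 10.9 in the ARP1 pair. Only the OCI-MY5 arrays exceeded 96.4. Its other probe set was also highest in OCI-MY5, at 67.8 and 97.2, against 13.4 and 36.9 in OPM2 and 55.6 and 44.7 in ARP1. A further probe set, annotated to ABCB4 and ABCB1 together, was not used.

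The rest of the pumps gave no call. ABCA2, a lysosomal lipid transporter linked to estramustine resistance, read 164 and 54.3 in OPM2 CD24+ and CD24- cells, 106 and 133.2 in the OCI-MY5 pair and 257 and 197 in the ARP1 pair. ABCA3, which fills lamellar bodies in lung and has been linked to drug retention in leukaemia, read 119.7 and 121 in OPM2, 86.6 and 25.7 in OCI-MY5 and 138 and 66.9 in ARP1. For ABCA2 both ARP1 values lie above the rest, while OPM2 and OCI-MY5 overlap. For ABCA3 OPM2 lies above OCI-MY5, and ARP1 overlaps both. ABCB5 reached 114, ABCC3 exceeded 96.4 only on the OPM2 CD24+ array, at 225, ABCC11 reached 96.2 and ABCC2 reached 21.8. Of the 12 pumps with a probe set of their own, 7 were tested, and 1 was higher and 2 were lower in OPM2 against ARP1, 1 higher and 4 lower against OCI-MY5, which is 42.9% and 71.4% of them where 25% and 26.1% of all genes passed. The median difference of the tested pumps was -0.60 against ARP1 and -0.79 against OCI-MY5, beside -0.04 and -0.00 for all genes.

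**Figure D4:**
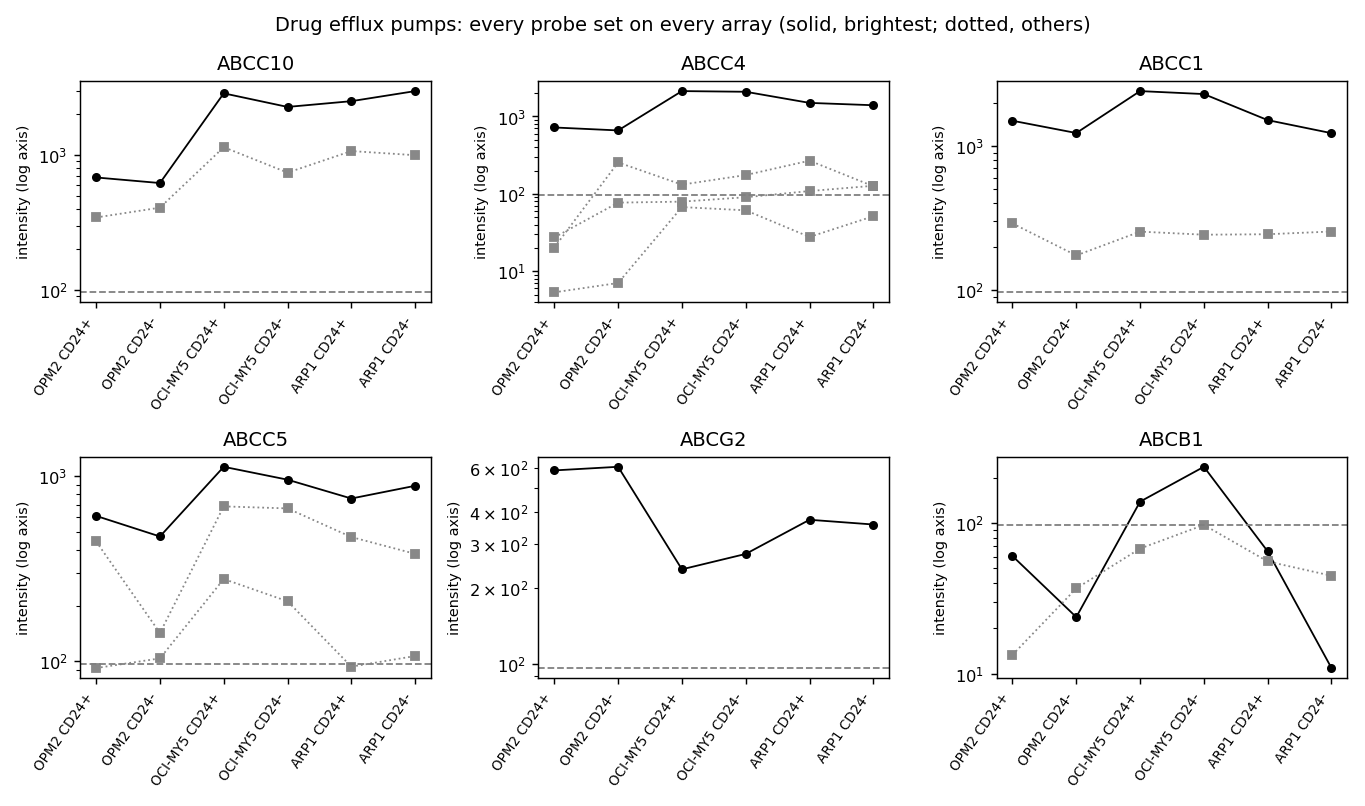
Intensity (log axis, a separate range per panel) of every probe set of 6 drug efflux pumps on the 6 arrays. Solid lines are the brightest probe set, dotted lines the others, and the dashed line is the highest TrpnX value, 96.4. Both ABCC10 probe sets are lowest on the OPM2 arrays, ABCG2 is highest there, and ABCB1 passes the dashed line only in OCI-MY5.

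In subfamily A, 6 of 13 genes were tested. ABCA1, which loads cholesterol and phospholipid onto apolipoprotein A-I, read 179 and 109.5 in OPM2 CD24+ and CD24- cells, 438 and 195 in the OCI-MY5 pair and 1512 and 1484 in the ARP1 pair. The ARP1 values stand far above the rest. ABCA1 was 9.67-fold lower in OPM2 than in ARP1 (-3.27, SE 0.43, limma adjusted p = 0.00789), the largest difference among the probe sets that stand for the tested members, and a call lost without either ARP1 array. Its probe set 203504_s_at gave -3.10 (adjusted p = 0.0155), while 2 dim probe sets brought the mean of its probe sets to -1.12 (adjusted p = 0.23). OCI-MY5 was 4.89-fold lower than ARP1, which did not pass (-2.29, SE 0.43, adjusted p = 0.0654).

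ABCA5, a lipid transporter of lysosomes and late endosomes, read 434 and 354 in OPM2 CD24+ and CD24- cells, 214 and 137 in the OCI-MY5 pair and 96.6 and 78.1 in the ARP1 pair. The lines were in that order with no overlap. It was 3.96-fold higher in OPM2 than in ARP1 (1.99, SE 0.27, limma adjusted p = 0.00864), lost without either ARP1 array, and 2.18-fold higher than in OCI-MY5 (1.12, SE 0.27, adjusted p = 0.0376), lost without any array but the OPM2 CD24- one. On median centring the ABCA5 call against OCI-MY5 ended (0.73, limma adjusted p = 0.241) and that against ARP1 stayed (1.72, adjusted p = 0.0156). The mean of its probe sets ended both (adjusted p = 0.115 and 0.199). ABCA11P, a transcribed pseudogene, read 180.3 and 158 in OPM2, 422 and 359 in OCI-MY5 and 157 and 189 in ARP1. It was 2.19-fold lower in OPM2 than in OCI-MY5 (-1.13, SE 0.20, adjusted p = 0.0159), lost without either OCI-MY5 array. OPM2 and ARP1 overlapped in it. ABCA7, a phospholipid transporter, gave no line call.

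In subfamily B, 4 of 8 genes were tested. ABCB6, which is linked to porphyrin transport in mitochondria and endolysosomes, read 498 and 1137 in OPM2 CD24+ and CD24- cells, 213 and 118 in the OCI-MY5 pair and 137 and 168 in the ARP1 pair. In this brighter probe set both OPM2 arrays were highest, although they differ from each other by more than 2-fold. Its other probe set, 203191_at, read 4.76 and 97.1 in OPM2 CD24+ and CD24- cells and 3.2 to 15.6 elsewhere. ABCB6 was 4.59-fold higher in OPM2 than in ARP1 (2.20, SE 0.47, limma adjusted p = 0.0282) and 4.40-fold higher than in OCI-MY5 (2.14, SE 0.47, adjusted p = 0.0298). Averaging its probe sets ended both calls (limma adjusted p = 0.109 and 0.124). Both calls were kept without either OPM2 array and lost without any 1 of the 4 others, with the fraction as a term (adjusted p = 0.0516 and 0.0525) and on median centring (0.051 and 0.0674).

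ABCB9, a lysosomal peptide transporter, read 258 and 194 in OPM2 CD24+ and CD24- cells, 78.0 and 70.4 in the OCI-MY5 pair and 106 and 74.1 in the ARP1 pair. OPM2 stood above both other lines, whose values overlapped and mostly lie below 96.4. It was 2.66-fold higher in OPM2 than in OCI-MY5 (1.41, SE 0.24, limma adjusted p = 0.0152), lost without either OCI-MY5 array, and 2.29-fold higher than in ARP1 (1.20, SE 0.24, adjusted p = 0.0252), kept, among single arrays left out, only without the OPM2 CD24- array. Both OCI-MY5 values are below 96.4, and raising readings under that limit to it gives at least 2.14-fold higher in OPM2. Its probe set 1555323_at did not pass (0.34 and 0.60). Against OCI-MY5 and ARP1, both ABCB9 calls ended on median centring (limma adjusted p = 0.0968 and 0.139). They also ended with an intensity trend (0.056 and 0.0965) and with the mean of its probe sets (0.123 and 0.186). ABCB8 and ABCB10, transporters of the inner mitochondrial membrane, gave no line call.

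In subfamily D, ABCD3, which brings long-chain acyl-CoA into peroxisomes, read 4818 and 5178 in OPM2 CD24+ and CD24- cells, 3555 and 4183 in the OCI-MY5 pair and 1698 and 2344 in the ARP1 pair. The lines did not overlap. It was 2.49-fold higher in OPM2 than in ARP1 (1.32, SE 0.23, limma adjusted p = 0.0164), lost without either ARP1 array, on median centring (adjusted p = 0.145) and in its dimmer probe set (0.17). ABCD4, which takes part in lysosomal cobalamin export, read 321 and 271 in OPM2, 599.7 and 612 in OCI-MY5 and 359 and 504 in ARP1. It was 2.00-fold lower in OPM2 than in OCI-MY5 (-1.0, SE 0.23, adjusted p = 0.0326), kept only without the OPM2 CD24+ array among single arrays left out.

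The translation factors of subfamilies E and F, 4 genes, were all tested, and their brightest probe sets exceeded 96.4 on every array. ABCE1, which splits ribosomes after termination, read 3666 and 4599 in OPM2 CD24+ and CD24- cells, 8040 and 8981 in the OCI-MY5 pair and 4305 and 4920 in the ARP1 pair. OCI-MY5 stood above the other lines, which overlapped. ABCE1 was 2.07-fold lower in OPM2 than in OCI-MY5 (-1.05, SE 0.20, limma adjusted p = 0.0215), kept only without an OPM2 array among single arrays left out. Its other probe set did not pass (-0.78, adjusted p = 0.0796).

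ABCF1, a partner of initiation factor eIF2, read 1317 and 1933 in OPM2 CD24+ and CD24- cells, 2142 and 2494 in the OCI-MY5 pair and 2406 and 2454 in the ARP1 pair. ABCF2 read 1202 and 1469 in OPM2, 1167 and 1213 in OCI-MY5 and 987 and 1196 in ARP1. ABCF3 read 237 and 554 in OPM2, 1019 and 912 in OCI-MY5 and 634 and 805 in ARP1. None passed between lines, although the ABCF1 and ABCF3 values of OPM2 lie below all others. The probe sets of ABCF2 disagree: in OPM2 against OCI-MY5, 209246_at was lower (-1.11, adjusted p = 0.0193) and 207623_at higher (1.03, adjusted p = 0.0346).

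Subfamily G held 5 genes, with ABCG1 and ABCG2 tested. ABCG1, which moves sterols towards high-density lipoprotein, read 196 and 53.3 in OPM2 CD24+ and CD24- cells, 63.7 and 92.9 in the OCI-MY5 pair and 179.6 and 212 in the ARP1 pair from its brightest probe set, which did not pass (OPM2 minus ARP1 -0.80, adjusted p = 0.331). Its probe set 204567_s_at read 3.63 and 40.5 in OPM2, 50.8 and 45.8 in OCI-MY5 and 309.6 and 371 in ARP1. It was lower in OPM2 than in ARP1 (limma log2 difference -3.41, adjusted p = 0.0141), with only the ARP1 arrays above 96.4, so raising the OPM2 readings to that limit gives at least 3.16-fold lower in OPM2. These 2 of its 4 probe sets give different calls, and 204567_s_at is named here after its values were seen. A further probe set, 230913_at, ran the other way and was too dim to test. It read 248 and 102 in OPM2 CD24+ and CD24- cells, 2.32 and 21.4 in the OCI-MY5 pair and 31.0 and 34.1 in the ARP1 pair. The probe sets of ABCG1 thus disagree on the direction between OPM2 and ARP1.

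Between OCI-MY5 and ARP1, 0 of 22 members passed by limma, where 2.62% of all genes did. At an unadjusted p below 0.05 there were 8 members (36.4%) and 2842 genes (23.5%), and the lowest adjusted p was 0.0616, for ABCA11P (1.105, SE 0.20). With an intensity trend in the fit, 4 of 22 members passed, 3 higher and 1 lower, where 1375 of 12078 genes passed.

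Between CD24+ and CD24- cells, 0 of 22 members passed by limma, where 0% of all genes passed. At an unadjusted p below 0.05 there were 0 members and 149 genes. With the cell line as a block, which pairs the fractions of a line, the counts were again 0 at the adjusted threshold, with 1 member (ABCA7) and 560 genes at an unadjusted p below 0.05. In each line alone there is 1 array per fraction and no test. Members differing at least 2-fold between the fractions numbered 4 in OPM2, 2 in OCI-MY5 and 0 in ARP1, where 18.2%, 5.72% and 5.07% of all genes did.

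The difference was positive in all 3 lines for 7 members, where 16.9% of all genes had this pattern, and negative in all 3 for 4, where 12.2% did. The 7 were ABCA1, ABCA5, ABCA7, ABCB8, ABCB9, ABCC1 and ABCC4, and the 4 were ABCD3, ABCE1, ABCF1 and ABCF2. ABCA7 had the steadiest of the larger differences. It read 364, 583 and 681 in CD24+ cells of OPM2, OCI-MY5 and ARP1, against 220.3, 432 and 413 in the CD24- cells of the same lines. Its mean difference was 0.60 ± 0.16 (SD, n = 3 lines; limma adjusted p = 1 without and 0.847 with the block).

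ABCA1 averaged 0.59 ± 0.54, from 0.03 in ARP1 to 1.105 in OCI-MY5, so its spread nearly equals its mean. ABCB8 averaged 0.38 ± 0.20, ABCA5 0.38 ± 0.18, ABCB9 0.31 ± 0.17, ABCC1 0.22 ± 0.13 and ABCC4 0.08 ± 0.05 (SD, n = 3 lines). Of the negative ones, ABCD3 averaged -0.27 ± 0.18, ABCF1 -0.26 ± 0.26, ABCE1 -0.23 ± 0.09 and ABCF2 -0.21 ± 0.13. None of these passed, and on median centring, which moves the median of all genes from 0.03 to -0.30, ABCB9, ABCC1 and ABCC4 turned negative. The pumps ABCC10 (0.07 ± 0.29) and ABCG2 (-0.06 ± 0.13) did not keep 1 sign over the lines.

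**Figure D5:**
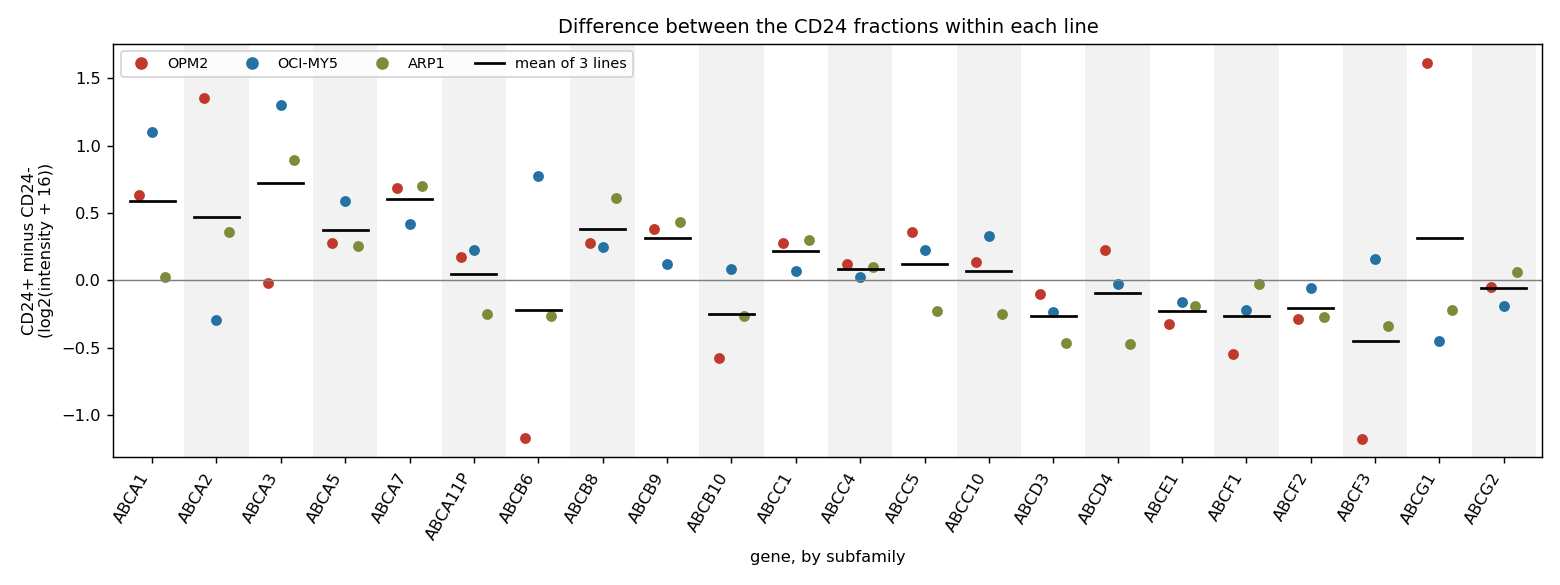
CD24+ minus CD24- difference in log2(intensity + 16) of each tested member within each line (points, 1 array per fraction) and the mean of the 3 lines (bars). ABCA7 lies between 0.42 and 0.70 in all lines, while ABCB6, ABCF3 and ABCG1 have their widest differences in OPM2.

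Partner genes were read in the same comparisons, from lists chosen with earlier results of these data known. Their calls are given from the main fit alone, and were not followed on median centring or with arrays left out. List medians in OPM2 ran from -0.99 for TAP1 and TAP2 to 0.86 for other drug carriers against ARP1, and from -0.78 to 0.93 for the same lists against OCI-MY5, beside -0.04 and -0.00 for all genes. Of all genes, 25% passed against ARP1 (10.1% higher and 14.8% lower) and 26.1% against OCI-MY5 (11.4% higher and 14.7% lower). The widest differences lay in glutathione supply and conjugation, which makes substrates of subfamily C pumps: of 16 tested, 6 were higher and 5 lower in OPM2 against ARP1, 4 higher and 4 lower against OCI-MY5 (68.8% and 50% of the list). MGST1, a membrane-bound glutathione transferase, read 147 and 47.6 in OPM2 CD24+ and CD24- cells, 25170 and 28000 in the OCI-MY5 pair and 25480 and 20620 in the ARP1 pair (limma adjusted p = 0.000927 against OCI-MY5). Its OPM2 CD24- value is at background, and raising readings under 96.4 to that limit gives at least 196-fold lower in OPM2. GSTO1 was lower likewise (adjusted p = 0.00513), at 167 and 16.8 in OPM2 against 5853 to 9688 elsewhere, and with the same treatment of its OPM2 CD24- value at least 63.7-fold lower than in OCI-MY5. GSTP1, a cytosolic transferase, ran the other way, at 3678 and 4376 in OPM2 against 47.1 to 154 in the other lines (adjusted p = 0.00347 against OCI-MY5), at least 29.2-fold higher with the OCI-MY5 CD24- value raised to 96.4. These 3 genes separate OPM2 from both other lines with no overlap. They were picked as the largest calls of the list, so this says nothing about its other genes.

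Among 12 tested partners of cholesterol efflux, 2 were higher and 1 lower in OPM2 against ARP1, 6 higher and 2 lower against OCI-MY5 (25% and 66.7% of the list). LCAT, which esterifies cholesterol on lipoproteins, was higher in OPM2 than in ARP1 (limma adjusted p = 0.00865), at 369 and 158.5 in OPM2 CD24+ and CD24- cells, 82.1 and 71.2 in the OCI-MY5 pair and 19.3 and 19.2 in the ARP1 pair. Both ARP1 values are at background, and raising them to 96.4 gives at least 2.31-fold higher in OPM2. NR1H3, the liver X receptor alpha that drives ABCA1, was lower in OPM2 than in OCI-MY5 (-2.14, SE 0.26, adjusted p = 0.00576), at 83.3 and 109 in OPM2, 574 and 391 in OCI-MY5 and 143 and 128 in ARP1. The highest line of NR1H3 was OCI-MY5 and that of ABCA1 was ARP1, and a link between the 2 genes in these cells was not tested. MYLIP, which degrades the LDL receptor, was higher in OPM2 than in OCI-MY5 (1.89, SE 0.29, adjusted p = 0.0113).

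Of 10 other drug carriers tested, 3 were higher and 1 lower in OPM2 against ARP1, 6 higher and 0 lower against OCI-MY5 (40% and 60% of the list), with SLCO3A1, an organic anion carrier, at 2.67 (SE 0.34, limma adjusted p = 0.00669) and ATP7A, a copper exporter, at 1.99 (SE 0.43, adjusted p = 0.0289) against OCI-MY5. SLCO4A1 was higher against ARP1 (1.83, SE 0.27, adjusted p = 0.0111). Of 8 xenobiotic and stress regulators, 2 were higher against ARP1 and 1 against OCI-MY5, with 0 lower in either (25% and 12.5% of the list): NFE2L2, the main activator of antioxidant elements, gave 0.91 against ARP1 (SE 0.18, adjusted p = 0.0246) and HIF1A, the hypoxia factor, 1.44 against OCI-MY5 (SE 0.17, adjusted p = 0.00546).

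For the 17 tested partners of mitochondrial iron and heme transport, 3 were higher and 3 lower against ARP1, 3 higher and 4 lower against OCI-MY5 (35.3% and 41.2% of the list). CPOX, an enzyme of heme synthesis, was lower in OPM2 than in OCI-MY5 (-2.42, SE 0.35, limma adjusted p = 0.00926), as was the chaperone HSPA9 (-1.47, SE 0.19, adjusted p = 0.00698), while the iron carrier SLC25A37 was higher in OPM2 than in ARP1 (1.51, SE 0.25, adjusted p = 0.0142). For 9 peroxisome partners, 0 were higher in either comparison, with 1 lower against ARP1 and 3 lower against OCI-MY5 (11.1% and 33.3% of the list): HSD17B4 (-1.41), catalase, CAT (-1.31), and PEX3 (-1.21).

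For 16 translation partners, 3 were higher and 2 lower against ARP1, 1 higher and 2 lower against OCI-MY5 (31.2% and 18.8% of the list). The termination factor ETF1, which acts before ABCE1, was lower in OPM2 than in OCI-MY5 (-1.59, SE 0.31, limma adjusted p = 0.0209), and EIF5 (1.16) and GSPT1 (1.12) were higher in OPM2 than in ARP1. For 8 cobalamin partners, 1 was higher and 0 lower against ARP1, 1 higher and 1 lower against OCI-MY5 (12.5% and 25% of the list). LMBRD1, the lysosomal partner of ABCD4, was higher in OPM2 than in ARP1 (1.38, SE 0.22, adjusted p = 0.0124), and MMAA was lower in OPM2 than in OCI-MY5 (-1.16, SE 0.29, adjusted p = 0.0421). Of the family members under other symbols, TAP1 and TAP2, which load peptides for antigen presentation, were tested: 1 was lower in each comparison, and TAP2 was lower in OPM2 than in OCI-MY5 (-1.60, SE 0.27, adjusted p = 0.0147). The chloride channel CFTR stayed below 96.4 on every array. KCNJ8 and KCNJ11, the channel partners of ABCC8 and ABCC9, were too dim to test. Between the fractions, 0 members of any of these lists passed.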

How the data were processed

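The 6 arrays measured RNA of CD24-sorted cells, 1 array for each of 3 myeloma lines and 2 fractions. Per the labels' protocols, 100 ng of total RNA was labelled per array. Per the submitters' processing notes, the authors used Affymetrix Expression Console 1.1, whose MAS5 algorithm gives the deposited intensity: linear, 1 value per probe set, with 1 scaling factor per array. Scanner files and detection calls were not used here. The number of arrays limits the precision.

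Probe sets with 1 gene symbol were kept (41091, against 1801 with several and 11721 with none, after leaving out 62 controls), and 41037 matched the RefSeq gene table of GRCh38.p14. The probe set with the highest mean log2(intensity + 16) over the 6 arrays stood for a gene, and 12078 genes at or above the median of all probe sets (log2 6.36) were tested on log2(intensity + 16) with limma 3.58.1 (R 4.3.3), two-sided, Benjamini-Hochberg at 0.05. Fractions were compared without a block, as the series' design text states no pairing; the line as a block was an alternative. Same-numbered samples come from the same line, and their deviations from the group means correlated at 0.70 to 0.77, against -0.58 to 0.15 between lines. A gene's 3 deviations within a fraction cancel out, so the gap between these ranges is partly set by the calculation. Lines were compared with 2 arrays each and 1 shared spread. The script was tested on simulated data with 200 changed genes. The transporters and partner lists were chosen with earlier results of these data known. Values on every array are given for members that passed between lines, for tested drug pumps, for ABCB1 and for subfamilies E and F. Other dim pumps are given by their highest value. For the fractions, the members named exceeded each array's own TrpnX value with 1 sign in all lines; ABCC10 and ABCG2 were added as pumps. Bounds with readings raised to 96.4 were added after the values were seen. From each partner list up to 3 genes that passed are named, by size. Alternatives were the pseudocount, filter, scaling, probe set rule, intensity trend, fraction as a term, background limit and arrays left out.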

Additional observations from a re-analysis of the deposited data

Results flagged for a closer look

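In 6 members the CD24+ minus CD24- difference exceeded 2-fold in opposite directions in OPM2 and ARP1, and in 2 of them the probe set also exceeded its array's own TrpnX value on at least 1 array of both lines. Such opposite differences were seen in 5 members for OCI-MY5 and ARP1 and in 4 for OPM2 and OCI-MY5. The share of all genes with this pattern is not given here, so the counts say nothing about the members as a set. ABCA17P, a pseudogene, differed by 1.85 in OPM2 and -1.13 in ARP1 on the log2 scale, with a highest intensity of 174. ABCB5, a transporter known from skin and melanoma, differed by 1.84 in OPM2 and -1.95 in ARP1, with a highest intensity of 114. ABCA17P and ABCB5 were too dim for the line comparisons, and the flagged probe sets of both peak on the OPM2 CD24+ array, whose median intensity was 135. In ARP1 these probe sets reached only 81.2 and 68.1, below 96.4. The difference between lines was not tested because each line has 1 array per fraction.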

How the results depend on the processing

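Between the fractions, 0 members passed under every alternative, the cell-line block included, which changed no call. For OPM2 against ARP1 the 8 calls became 3 without a filter on dim genes, 5 on median centring and 1 with the mean of all probe sets, and 1 to 10 with 1 array left out. For OPM2 against OCI-MY5 the 11 calls became 3, 5 and 5 under the same changes and 7 with the fraction as a term, and 2 to 12 with 1 array left out. For OCI-MY5 against ARP1 the 0 calls became 2 with a pseudocount of 64, 4 with a filter at the 75th percentile, 1 with quantile normalization, 1 on median centring and 4 with an intensity trend, and 0 to 4 with 1 array left out. The 2 members at background became 13 with each other limit. With no filter more genes share the adjustment; the cause of the other shifts was not tested. Gene by gene, 188 of 297 line results kept their call, 109 lost it and 0 reversed. Of 206 fraction results, 190 kept their direction and 16 reversed. On median centring ABCB9 became -0.017, ABCC1 -0.116 and ABCC4 -0.248, and the mean of all probe sets gave ABCC4 -0.341. With arrays left out, which unbalances the lines, differences ran from -0.20 to 1.66 for ABCA1, -0.12 to 0.92 for ABCA5, -0.14 to 0.73 for ABCB9, -0.009 to 0.513 for ABCC1, -0.37 to 0.51 for ABCC4, -0.59 to 0.16 for ABCD3 and -0.564 to 0.079 for ABCE1. Over all genes, calls for OPM2 against ARP1 were 3018, and 1864 on centring, 1430 without a filter and 680 to 4229 with 1 array left out. Those for OPM2 against OCI-MY5 were 3150, and 1640 without a filter and 952 to 4575 with 1 array left out. Those for OCI-MY5 against ARP1 were 316 and ranged from 0 without a filter to 1375 with a trend; 32.0% of the 316 were higher, and 43.2% of the 322 after quantile normalization. Signal near background limits the 23 dim members, whose values have no test.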
